A study of Rattus norvegicus with 8 samples.

Results

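The immediate early transcription factors Egr1, Egr2, Egr3, Nr4a1, Nr4a2, Nr4a3, Fos, Fosb, Jun and Junb were examined in primary rat thymocytes, the immature T lymphocytes of the thymus, after culture with or without dexamethasone. Their probes were found by gene name in the scanner output, and all 10 genes were present, with 12 of the 41012 non-control probes of the array. Nr4a3 has 3 probes and every other gene has 1. Both groups came from adrenalectomized male Sprague-Dawley rats, whose main source of endogenous glucocorticoid had been removed, with the thymi of 3 animals pooled for a preparation. The Control group held 4 arrays of untreated cells, and the Dex group held 4 arrays of cells given 100 nM dexamethasone, a synthetic glucocorticoid, both cultured for 6 h. RNA was taken from whole cell suspensions and not from sorted cells, so that fewer cells of a type and less RNA per cell cannot be told apart.

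Immediate early genes are transcribed within minutes of a signal without the need for new protein, and their messages are short-lived. In thymocytes they are best known as a readout of the T cell receptor: calcium, RAS and MAP kinase signals act on serum response factor (SRF), its ternary complex partners, CREB and MEF2 at the promoters of these genes. Egr proteins are zinc finger factors that are held in check by the corepressors NAB1 and NAB2, Nr4a proteins are orphan nuclear receptors that contribute to the death of negatively selected thymocytes, and Fos and Jun proteins pair as the AP-1 factor. The activated glucocorticoid receptor is known to interfere with AP-1 activity and to induce Dusp1, a phosphatase that switches off MAP kinases.

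Values are quantile normalized log2 signals, in which a difference of 1 is a doubling, and levels of different probes cannot be set against each other. The scanner software flags spots well above background, and its flag was set for 24908 to 34472 probes of an array, with the lowest numbers on Control 1, Dex 1 and Dex 2. Control 1 and Dex 3 lay on one slide, Control 2, 3 and 4 on another and Dex 1, 2 and 4 on the last, so that slide and treatment overlap for most arrays. Tsc22d3, a standard glucocorticoid target that encodes GILZ, checked the labels: its 2 probes were higher on every Dex array than on every Control array, by 3.59 and 3.54 on the log2 scale (limma adjusted p = 0.000153 and 0.000134). The tissue label was checked against 14 markers of double positive thymocytes, of which 11 were found on the array by name and all 11 were well above background on all 8 arrays, Cd3d, Cd3e, Cd3g, Cd4, Cd8a and Cd8b among them. This shows that the markers were present and does not set the cells apart from others, since 9 of 10 macrophage and monocyte, 4 of 4 granulocyte and 4 of 4 erythroid markers were also above background on all 8 arrays.

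SRF binds the CArG box, a CC and a GG around a run of A and T, and the promoters of the members were searched for it. RefSeq windows from 250 bases before to 50 bases after the transcription start, in build GRCr8, matched 6 of the 10 genes, namely Egr1, Egr2, Nr4a1, Nr4a2, Fosb and Junb. A CArG box, searched on both strands, occurred in 548 of 33469 such windows, or 1.64%, and in 2 of the 6. The stretches that end 55 bases before the start are shown for Egr1 (plus strand, chr18:26736963-26737023) and Egr2 (minus strand, chr20:21054496-21054556), 5′ to 3′. They are shown because, of the 6 windows searched, these held a CArG box, which is in capitals.
Egr1: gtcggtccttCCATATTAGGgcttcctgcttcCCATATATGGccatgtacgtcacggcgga
Egr2: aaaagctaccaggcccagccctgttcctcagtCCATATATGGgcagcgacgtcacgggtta
Egr1 held 2 boxes, which began 105 and 83 bases before its start. The box of Egr2 began 83 bases before its start, as the nearer box of Egr1 did, and had the same letters. In each gene a TGACG, the core of the CREB element, lay on the reverse strand 66 bases before the start. TGACG was found on either strand in 21.2% of all windows and in 5 of the 6 member windows, Fosb being the exception. The glucocorticoid half-site letters TGTTCT were in 20.7% of all windows and in 0 of the 6.

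In limma none of the 10 reached an adjusted p of 0.05, which 0.778% of all probes did. The smallest adjusted p was 0.0955, for Fos. At an unadjusted p under 0.05 there were 5 of the 10, against 10.6% of all probes: Fos, Fosb and Junb were higher in Dex, and Egr1 and Jun were lower. In 4 of the 10 the Dex arrays all lay on one side of the Control arrays, above them for Fos, Fosb and Junb and below them for Jun, where 9.11% of all probes were separated in this way. A signal to noise statistic after the study's methods, one-tailed and recomputed here over all 70 assignments of the arrays in place of random draws, called Fos, Fosb and Jun, or 3 of 10, against 6.79% of all probes. By value 4 genes were higher and 6 were lower in Dex. Their median log2 fold change was -0.30, beside 0.00033 over all probes, and their median absolute log2 fold change was 0.70, beside 0.27. The sign of the first median is not settled: it was 0.104 with slide as a fixed block, 0.150 without the 3 arrays with the fewest probes above background and 0.0436 with that number as a covariate, the last pair chosen after seeing the data, and it ran from -0.526 without Control 2 to -0.097 without Dex 2. All but Egr3 were well above background on all 8 arrays.

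**Figure D1:**
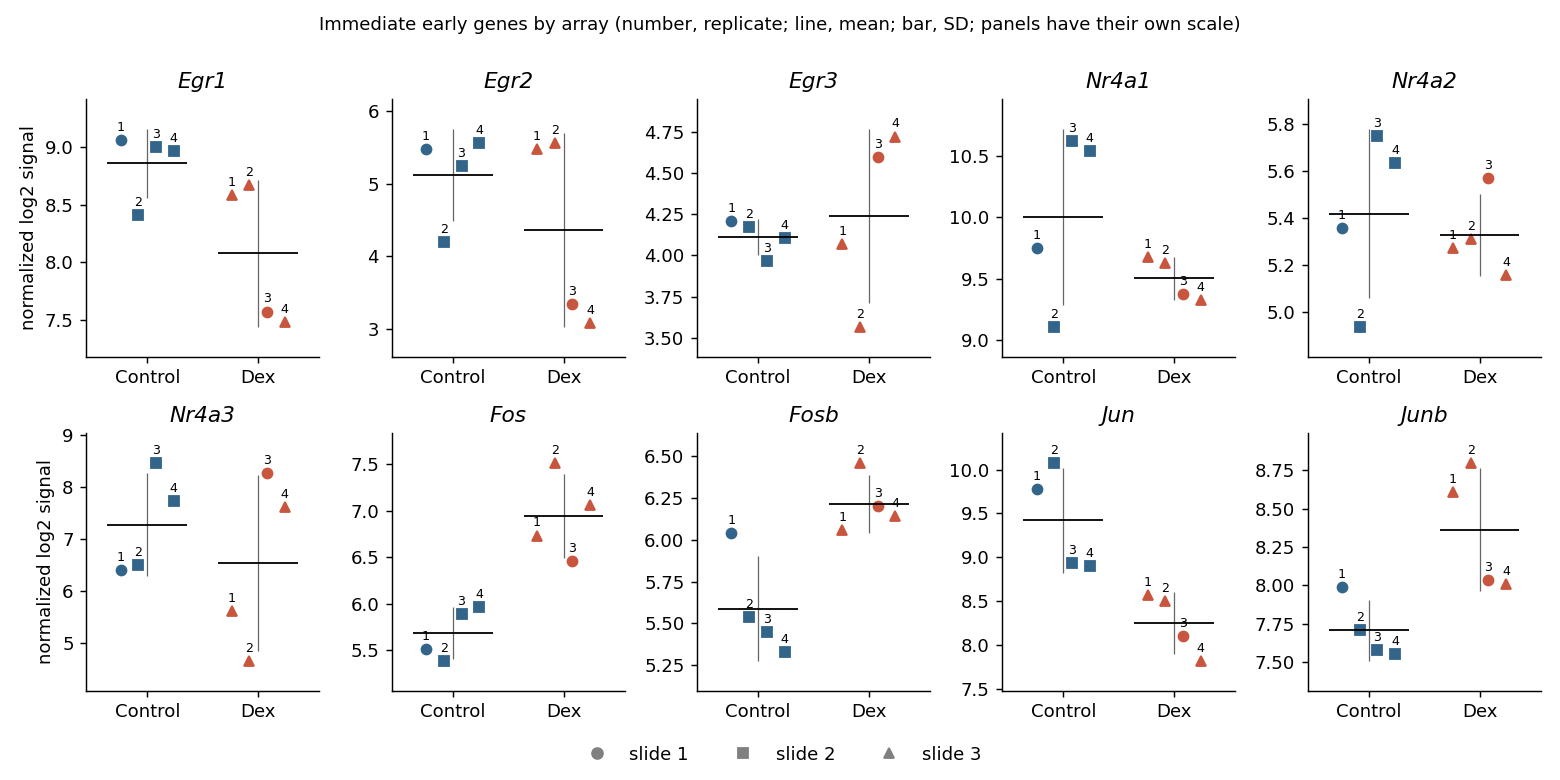
Normalized log2 signal (y axis) of each of the 10 genes on the 4 Control arrays (blue) and 4 Dex arrays (red), with a panel and scale for each gene. Numbers give the replicate, shapes the slide, horizontal lines the mean and vertical bars the SD (n = 4). The groups are apart for Fos, Fosb, Jun and Junb and overlap for the other 6 genes.

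**Figure D2:**
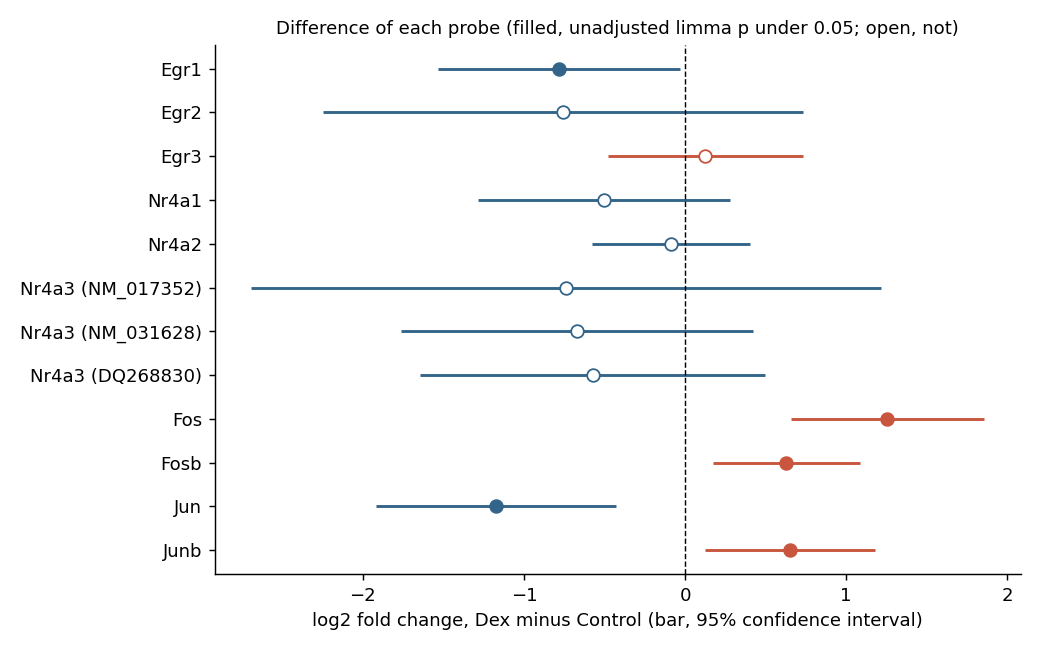
Log2 fold change of Dex minus Control (x axis) with its 95% confidence interval from limma for the 12 probes, red where Dex was higher and blue where it was lower. Filled points had an unadjusted p under 0.05, and no probe passed the adjustment over all probes. Intervals of Egr1, Fos, Fosb, Jun and Junb lie on one side of 0, and that of the Nr4a3 probe of NM_017352 is the widest, from -2.69 to 1.22.

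Among the AP-1 members Fos, Fosb and Junb lay higher and Jun lower by value with dexamethasone, and none of them passed the adjustment over all probes. Fos encodes the classic partner of Jun and forms no dimers with itself. Its probe (NM_022197, rn3 chr6:109564555-109564614, plus strand) read 5.52, 5.39, 5.88 and 5.96 on Control arrays 1 to 4. On Dex arrays 1 to 4 it read 6.73, 7.51, 6.46 and 7.06. The lowest Dex array thus lay above the highest Control array. The log2 fold change of Fos was 1.26 (standard error 0.26, 95% confidence interval 0.66 to 1.85), or 2.39-fold higher in Dex, with a limma p of 0.00126 and an adjusted p of 0.0955. With the groups apart, every pairing of arrays must go this way, so that pairs give the size of the difference alone. Between arrays of the same number Dex exceeded Control by 0.58 to 2.13, and within the shared slide Dex 3 exceeded Control 1 by 0.95. With slide as a random block, which was fitted at a correlation of -0.24 within slides and raised the calls over all probes from 319 to 1838, Fos passed (limma adjusted p = 0.0133), as it did with array weights (limma adjusted p = 0.0488). With slide as a fixed block Fos did not pass (limma adjusted p = 0.771). For the difference that fit rests on Control 1 and Dex 3 alone, and it called 1 of all 41012 probes. Not passing in it therefore says little about a single gene, here or below. The adjusted p of Fos lay between 0.0133 and 0.9998 over the alternatives tried, the highest with median scaling, which called 13 of all probes. With normexp background correction, which adds an offset of 50 to every intensity and so draws dim values together, the log2 fold change of Fos was 0.64 (limma adjusted p = 0.0609).

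Fosb, whose product also pairs with Jun proteins, is probed through a predicted transcript (XM_001057199, rn3 chr1:78746783-78746842, minus strand). Control arrays read 6.04, 5.54, 5.45 and 5.33, and Dex arrays read 6.06, 6.46, 6.20 and 6.14. No Dex array overlapped the Control range, but Control 1 came within 0.02 of Dex 1. This was a log2 fold change of 0.63 (95% confidence interval 0.17 to 1.08, limma adjusted p = 0.288). Within the shared slide the difference was 0.16, and with normexp background correction the log2 fold change of Fosb was 0.27 (limma adjusted p = 0.138). Fosb passed with slide as a random block (limma adjusted p = 0.0457) and not as a fixed block (limma adjusted p = 0.877).

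Junb encodes a Jun protein that activates weakly and can oppose Jun. Its probe (NM_021836, rn3 chr19:24837607-24837666, plus strand) read 7.99, 7.71, 7.58 and 7.56 on the Control arrays. The Dex arrays read 8.61, 8.80, 8.03 and 8.01, so that Dex 1 and 2 stood well above the Control arrays and Dex 3 and 4 just above Control 1. Junb thus had a log2 fold change of 0.65 (95% confidence interval 0.12 to 1.18, limma adjusted p = 0.347). Dex 3 exceeded Control 1, its neighbor on the slide, by only 0.04. Junb also passed with slide as a random block (limma adjusted p = 0.0478) and not as a fixed block (limma adjusted p = 0.977).

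Jun, the AP-1 subunit that can pair with itself or with Fos, went the other way. Its probe (NM_021835, rn3 chr5:115363990-115364049, minus strand) is printed 10 times and read 9.77, 10.08, 8.94 and 8.90 on the Control arrays. The Dex arrays read 8.57, 8.50, 8.10 and 7.82, all of them below the lowest Control array. Jun had a log2 fold change of -1.17 (standard error 0.32, 95% confidence interval -1.92 to -0.43), or 2.26-fold lower in Dex, with a limma p of 0.00645 and an adjusted p of 0.212. As for Fos, the direction of each pair follows from the groups being apart. The differences between arrays of the same number were -1.58 to -0.84, and within the shared slide Dex 3 minus Control 1 was -1.67. Jun passed with slide as a random block (limma adjusted p = 0.0416) and not as a fixed block (limma adjusted p = 0.771) or with the replicate number as a block (limma adjusted p = 0.147).

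Egr1 encodes an early growth response factor that is induced by T cell receptor signals and binds GC-rich promoters. Its probe (NM_012551, rn3 chr18:27373819-27373878, plus strand) is printed 10 times and read 9.06, 8.41, 8.998 and 8.97 on the Control arrays. The Dex arrays read 8.58, 8.67, 7.57 and 7.48. Dex 3 and 4 lay well below every Control array, while Dex 1 and 2 lay above Control 2 and below the other Control arrays. The log2 fold change of Egr1 was -0.78 (standard error 0.33, 95% confidence interval -1.54 to -0.03), or 1.72-fold lower in Dex, with a limma p of 0.0436 and an adjusted p of 0.449. Control 2 was the array apart in its group, and without it the log2 fold change was -0.93. The fits that each left out 1 array ran from -0.98 without Dex 2 to -0.58 without Dex 4, and Egr1 passed in none of them. With array weights it was -0.44, and a fixed block for slide, which rests on Control 1 and Dex 3 alone, gave -1.49.

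Dex 1, Dex 2 and Control 1 are the arrays with the fewest probes well above background. Without these 3, an alternative chosen after seeing the data, Egr1 had a log2 fold change of -1.27 and passed (limma adjusted p = 0.0391), and with the number of such probes as a covariate it also passed (limma adjusted p = 0.0305). The fit without the 3 arrays sets Control 2, 3 and 4 of one slide against Dex 3 and Dex 4 of the others, so that slide and treatment cannot be told apart in it, and it leaves out both Dex arrays whose Egr1 overlapped Control. The part of detection in this difference was not tested. Fosb was the other member to pass without the 3 arrays (limma adjusted p = 0.0419), a fit that called 4671 of all probes.

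Repeated spots show the noise within an array, without that of labeling, hybridization or culture. Over the spots of these probes on an array, 9 or 10 of which remained after outliers were left out, the SD was between 0.03 and 0.09. Between arrays the SD of Egr1 was 0.30 in Control and 0.64 in Dex, and that of Jun was 0.59 and 0.35. Over all probes the median SD was 0.28 in Control and 0.50 in Dex, and the Dex SD was the larger for 75.4% of them. The spots of Egr1 on Dex 3 and Dex 4 reached at most 7.69, and those on Dex 1 and Dex 2 began at 8.45.

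**Figure D3:**
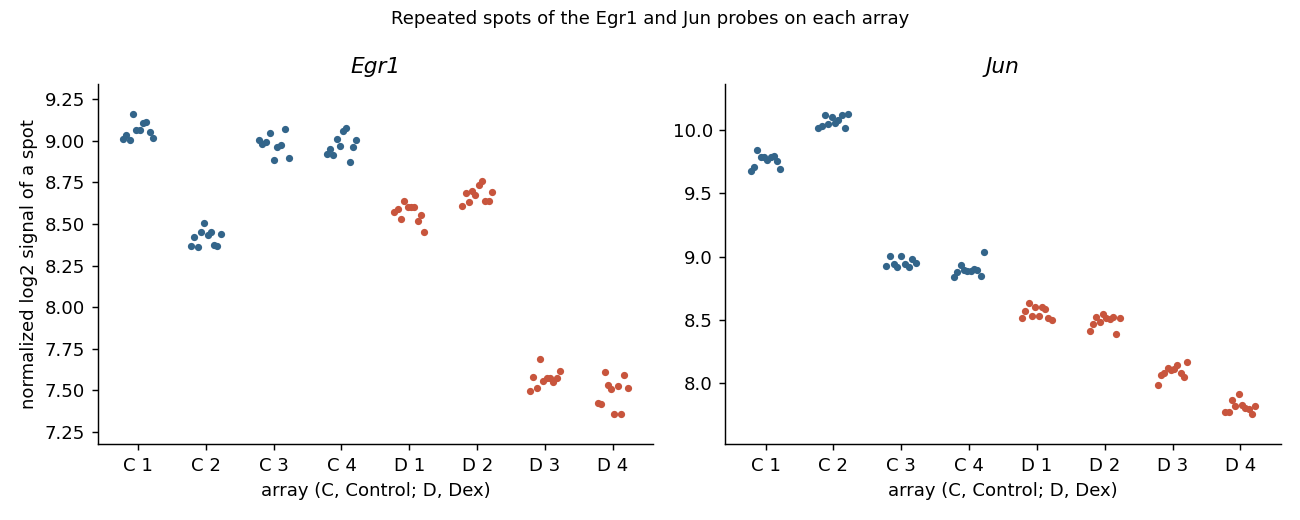
Normalized log2 signal of every repeated spot (y axis) of the Egr1 and Jun probes on each array (x axis; C, Control in blue and D, Dex in red). The spots show noise within an array alone, with Egr1 between 8.61 and 8.76 on Dex 2 and between 7.50 and 7.69 on Dex 3.

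Egr2, a close relative of Egr1 that acts in thymocyte selection, likewise had its lowest values on Dex 3 and 4, with a larger spread. Its probe (NM_053633, rn3 chr20:21897740-21897799, minus strand) read 5.48, 4.20, 5.25 and 5.57 on the Control arrays. It read 5.48, 5.56, 3.34 and 3.09 on the Dex arrays. Dex 1 and 2 matched the higher Control arrays, and Dex 3 and 4 lay below all Control arrays. The log2 fold change was -0.76 with a 95% confidence interval of -2.25 to 0.73 (limma adjusted p = 0.747), so that neither a fall nor a rise was shown. Leaving out single arrays moved it from -1.16 without Dex 2 to -0.33 without Dex 4 (-1.13 without Dex 1 and -0.42 without Dex 3), and array weights gave -0.07. After group means were subtracted, Egr1 and Egr2 correlated at 0.993 over the 8 arrays, which share slides and differ in detection. Egr3, which together with Egr2 restrains T cell activation, had its higher Dex values on Dex 3 and 4, where these were low. Its probe (NM_017086, rn3 chr15:50494763-50494822, plus strand) read 4.21, 4.17, 3.96 and 4.10 in Control and 4.07, 3.57, 4.59 and 4.72 in Dex. It was well above background on 2 of the 4 Dex arrays. The lowest value of any probe with that flag was 4.06 on Dex 1 and 4.44 on Dex 2, beside 2.58 on Dex 3 and 2.57 on Dex 4. Egr3 thus lay near or below this floor on Dex 1 and 2, and its order over the Dex arrays may be one of detection, which was not tested. Egr3 had a log2 fold change of 0.13 (95% confidence interval -0.48 to 0.73, limma adjusted p = 0.907), and its sign turned under scaling to the 75th percentile, to -0.16, and without Dex 4, to -0.04.

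The Nr4a receptors had lower mean values with dexamethasone, and none of the 3 passed the test. Nr4a1, also called Nur77, is widely used to report T cell receptor signals in thymocytes. Its probe (NM_024388, rn3 chr7:140096879-140096938, plus strand) read 9.75, 9.11, 10.62 and 10.54 on the Control arrays, where replicates 3 and 4 stood above 1 and 2. The Dex arrays were close together, at 9.68, 9.63, 9.38 and 9.33, and lay within the range of the Control arrays. This gave a log2 fold change of -0.50 (95% confidence interval -1.29 to 0.28, limma adjusted p = 0.687), and the SD was 0.72 in Control and 0.17 in Dex. It was -0.80 without Control 2, -0.30 without Control 3 and -0.32 without Control 4. Nr4a2, or Nurr1, is a receptor known best from dopamine neurons. Its probe (NM_019328, rn3 chr3:38763393-38763452, minus strand) read 5.36, 4.94, 5.75 and 5.63 in Control and 5.27, 5.31, 5.57 and 5.16 in Dex. The log2 fold change of Nr4a2 was -0.09, with a 95% confidence interval of -0.58 to 0.40 (limma adjusted p = 0.918). Its sign turned with slide as a fixed block, to 0.21, and without Control 3, to 0.02.

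Nr4a3, or Nor1, is covered by 3 probes on the plus strand of chromosome 5, whose first 30 of 60 bases are shown because the probes gave different patterns. Their rn3 positions are chr5:64732396-64732455 for NM_017352, chr5:64758249-64758308 for NM_031628 and chr5:64759221-64759280 for the transcript DQ268830. The first lies 25.9 kb before the second, and the last pair is 0.972 kb apart. The RefSeq table used here lists NM_031628 for Nr4a3, and the accession of the first probe was not matched.
NM_017352: ttgggttctcctgcatttagatagctctac
NM_031628: tggccgttttgctaagactcaaactttgaa
DQ268830: gtcttccatagttatcacaactatgagagc
The NM_017352 probe, the brightest, read 6.41, 6.51, 8.46 and 7.74 in Control and 5.62, 4.66, 8.27 and 7.61 in Dex. In both groups replicates 3 and 4 were higher than 1 and 2. The NM_031628 probe read 6.11, 4.93, 7.07 and 6.61 in Control and 6.03, 5.85, 5.33 and 4.83 in Dex. The DQ268830 probe read 6.15, 5.13, 6.60 and 6.32 in Control and 6.32, 6.03, 4.85 and 4.70 in Dex. For these other probes Dex 3 and 4 were the lower Dex arrays, as for Egr1 and Egr2, while for the NM_017352 probe they were the higher ones. The log2 fold changes of Nr4a3 were -0.74, -0.67 and -0.57 in the same order, and each interval held 0 (limma adjusted p = 0.820, 0.700 and 0.731). The similar means therefore came from different arrays. For the NM_017352 probe the value ran from -1.31 without Dex 3 to -0.11 without Dex 2 when single arrays were left out, with -0.34 without Control 3 and -0.43 without Dex 1. Within the shared slide the NM_017352 probe was 1.87 higher on Dex 3, and the others were lower, by -0.78 and -1.30.

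**Figure D4:**
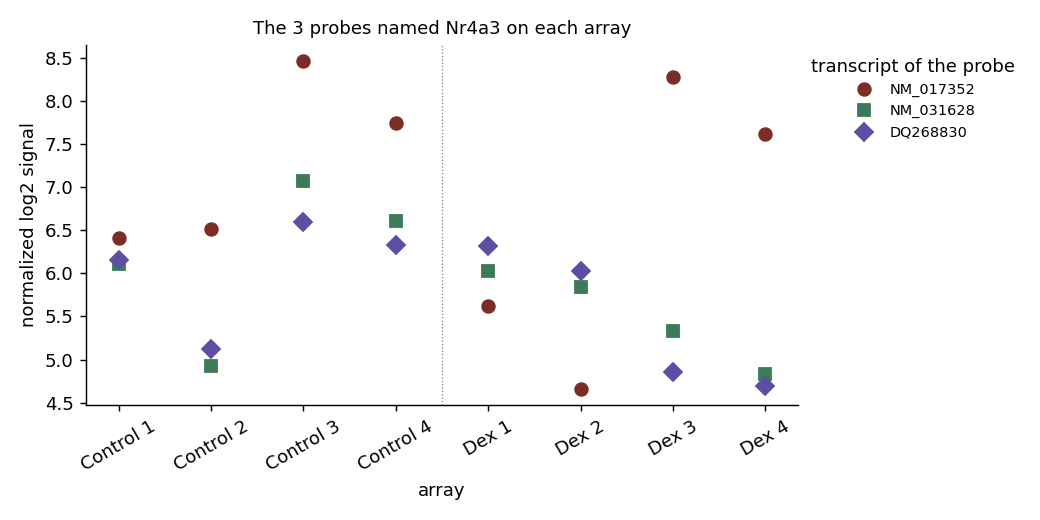
Normalized log2 signal (y axis) of the 3 probes named Nr4a3 on each of the 8 arrays (x axis), with a color and shape for each probe's transcript. Heights of different probes are not comparable, only their order over arrays. On Dex 3 and Dex 4 the NM_017352 probe stands at 8.27 and 7.61, its highest Dex values, and the other probes at 4.70 to 5.33, their lowest Dex values.

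For 3 of the members the genes with the most similar profile were taken as those with the highest Pearson r over the 8 arrays after group means had been subtracted, among 10730 named probes of genes other than the 10 factors that were well above background on all arrays. The first for Egr1 were Arf4 (r = 0.993), Msl2l1 (0.992) and Asahl (0.990). For Nr4a1 they were Ndnl2 (0.980), Gnb1 (0.974) and Slc38a1 (0.968), and for Fos they were Rhobtb2 (0.984), Gdf11 (0.948) and Elmo2 (0.948). The likeness is within groups and leaves out the difference between them. Without the subtraction r with Fos was 0.04 for Rhobtb2, 0.77 for Gdf11 and -0.65 for Elmo2, while for the genes named with Egr1 and Nr4a1 it ran from 0.63 to 0.99. These are the extremes of many correlations over few arrays and are a description.

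The genes around these factors were followed in 7 lists with 100 genes, of which 92 were on the array. Of these 92, 4 passed an adjusted p of 0.05 over all probes, 2 in each direction, where 0.778% of all probes passed, and 23 had an unadjusted p under 0.05, against 10.6% of all probes. The first 3 named here were among 23 other immediate early genes, of which 6 were higher and 17 lower by value, with a median log2 fold change of -0.18. Dusp1 rose by 3.05 (NM_053769, limma adjusted p = 0.000927). Arc, an immediate early gene known from synapses, has a probe printed 10 times that read 10.66, 10.31, 10.25 and 10.51 in Control and 9.19, 9.19, 8.58 and 8.50 in Dex. Arc fell by 1.57 (95% confidence interval -2.07 to -1.06, limma adjusted p = 0.0224). Btg2, an antiproliferative gene, read 15.91, 16.19, 16.22 and 16.00 in Control and 14.80, 14.69, 15.18 and 15.06 in Dex. Btg2 fell by 1.15 (95% confidence interval -1.55 to -0.75, limma adjusted p = 0.0294). The remaining gene, Bcl2l11, encodes the death protein Bim and was 1 of 13 genes known to be raised by T cell receptor signals, where it rose by 1.77 (limma adjusted p = 0.0142). In that list 6 genes were higher and 7 lower by value, with a median of -0.03, which averages over genes that moved in both directions. Of the 13, 6 had an unadjusted p under 0.05, 3 higher and 3 lower, against 10.6% of all probes. The Dex arrays lay all above the Control arrays for 2 genes and all below for 2, where 9.11% of all probes were separated. With the replicate number as a block only Dusp1 of the 4 passed, and leaving out single arrays left between 1 and 3 of them, Dusp1 in each case. With 75th percentile scaling 2 passed, and with median scaling or slide as a fixed block 0 of the 4 passed, Dusp1 included. Median scaling called 13 of all probes and the fixed block 1, so that hardly any gene could pass in them.

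The remaining lists held no gene that passed. Of 8 other EGR and AP-1 family members 3 had an unadjusted p under 0.05, namely Fosl2, Jund and Batf, where 10.6% of all probes did. Fosl2, also called Fra-2, was higher by 0.76 (limma adjusted p = 0.464), and the AP-1 partner Batf by 0.96, with every Dex array above every Control array (limma adjusted p = 0.264). Fosl1, or Fra-1, stood at 0.01 (95% confidence interval -0.38 to 0.40, limma adjusted p = 0.987). Jund, a Jun gene expressed without stimulation, has 2 probes that disagreed: the brighter one had a log2 fold change of -0.69, with all Dex arrays below the Control arrays (limma adjusted p = 0.171), and the other had one of 0.51 (limma adjusted p = 0.509). Egr4 was not well above background on any array, and no fold is given. The corepressor genes Nab1 and Nab2 had log2 fold changes of -0.52 and 0.22 (limma adjusted p = 0.769 and 0.842), and Nab1 was well above background on 1 of the 4 Dex arrays.

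Upstream, Srf stood at 0.01 (95% confidence interval -0.48 to 0.50, limma adjusted p = 0.993), and of the 11 factors of its list 9 were higher and 2 lower by value, with a median of 0.15. Of 21 genes of the RAS and MAP kinase cascade 6 were higher and 15 lower, with a median of -0.14, and 4 had an unadjusted p under 0.05, 1 higher and 3 lower, beside 10.6% of all probes. Of 10 calcineurin and NFAT genes 5 were higher and 5 lower, and of 6 partners, corepressors and turnover genes 4 were higher and 2 lower.

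**Figure D5:**
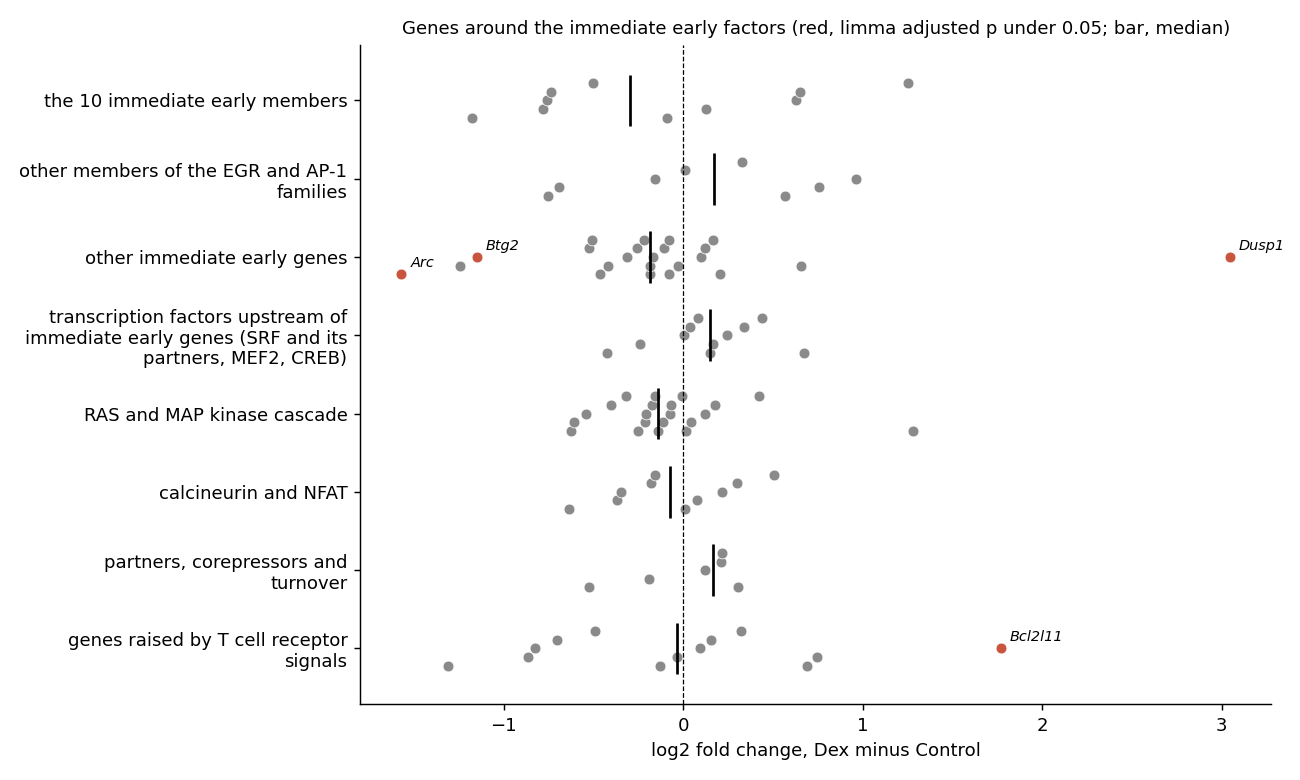
Log2 fold change of Dex minus Control (x axis) for each gene of the 10 immediate early factors and of the 7 lists around them (rows), with a bar at the median and the genes that passed a limma adjusted p of 0.05 in red. Those are Dusp1 at 3.05, Bcl2l11 at 1.77, Btg2 at -1.15 and Arc at -1.57, while the 10 factors spread from -1.17 to 1.26 around a median of -0.30, whose sign turned in some alternative fits.

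Markers of other cells that such a suspension could hold were also measured. Summed over the list on the linear scale, 10 macrophage and monocyte markers reached 4470 to 6172 in Control and 4360 to 8802 in Dex, and the ranges overlapped. Bright markers dominate such a sum. By value 6 of the 10 were higher and 4 lower, with a median log2 fold change of 0.16, and 3 had an unadjusted p under 0.05, against 10.6% of all probes: Mrc1 was higher by 2.12 (limma adjusted p = 0.0870) and C1qc by 0.97 (limma adjusted p = 0.327), each with every Dex array above every Control array, and C1qb by 0.84 (limma adjusted p = 0.330). The fibroblast marker Pdgfrb was higher by 1.72 (limma adjusted p = 0.160), with every Dex array above, and was well above background on 2 Control and 3 Dex arrays. Without Cd8b, which has a missing value on Control 1, the other 10 markers of double positive thymocytes summed to 311900 to 345300 in Control and 246000 to 346900 in Dex. Summed markers of dendritic cells, B cells, fibroblasts, epithelial cells, granulocytes and erythroid cells also overlapped between the groups. By value 6 of 7 fibroblast markers were higher in Dex (median 0.61), as were 5 of 5 epithelial (0.33), 4 of 4 erythroid (0.52), 4 of 4 granulocyte (0.17), 3 of 4 dendritic cell and 2 of 4 B cell markers, while 8 of 11 markers of double positive thymocytes were lower (median -0.17). Of the fibroblast markers 3 were above background on no array. The 6 endothelial markers summed to 1840 to 2429 in Control and 1222 to 1688 in Dex, ranges that did not overlap, while by value 4 of them were higher and 2 lower. The brightest, Vwf and Kdr, stood at -0.53 and -0.68 on the log2 scale (limma adjusted p = 0.302 and 0.719), and Pecam1, the only marker of any list to pass, rose by 1.36 (limma adjusted p = 0.0208). The part of other cells in the values of the 10 factors was not tested.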

How the data were processed

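RNA of 4 Control and 4 Dex thymocyte cultures was hybridized to Agilent 1-color Whole Rat Genome arrays. The deposited scanner output holds spot intensity values from Feature Extraction 9.5.3.1, background subtracted and detrended within each array, with flags (well above background, saturated, outlier), and probe positions in build rn3. In a further table the authors deposited log2 values after quantile normalization and median polish per probe. These steps were recomputed here from the processed intensity, without control spots and 767 outlier spots, which gave 41012 probes, 16 missing values and a median difference of at most 0.00158 from the deposited log2 values. No spot was saturated.

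Dex was compared with Control by limma 3.58.1 in R 4.3.3 (lmFit, eBayes, two-sided), and p-values were adjusted over all probes by Benjamini-Hochberg, with a threshold of 0.05. Probes were not filtered. A signal to noise statistic after the study's methods, whose permutations are not given in full, was pooled over all 70 assignments of the arrays with probes called where the one-tailed p was 0.01 or less and the fold 1.2 or more. The brightest probe stands for a gene. Named were the 10 members, Tsc22d3, called genes of the lists, Egr4, Fosl1, Fosl2, Jund, Nab1, Nab2 and Srf, and the 3 genes most similar to Egr1, Nr4a1 and Fos. Batf and the cell type markers were named after their values were seen. The members and lists were chosen with earlier results of these data known. Procedures were tested on simulated data.

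The methods state 3 biological replicates per group, and the sources do not name the arrays used, so all 8 entered. Whether the 4 arrays of a group are separate preparations is not stated, so that p-values measure the spread between arrays, which may be technical. Deviations from group means correlated at 0.397, 0.129, 0.550 and 0.184 between arrays of the same number, and the numbers were taken to pair them. Some unlike numbers correlated as highly, Control 1 with Dex 2 at 0.401. The number of arrays limits the precision. No rn3 annotation was used, so whether a probe lies in a coding exon or a UTR was not analysed here.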

Additional observations from a re-analysis of the deposited data

Results flagged for a closer look

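On Control 2 the normalized log2 signal of Egr1 was 8.41, apart from the other Control arrays at 8.97 to 9.06. Its distance from the next array took up 0.854 of the spread of the 4 arrays, beyond the 95% limit of Dixon's test. The 10 spots of the probe on Control 2 read between 8.36 and 8.50. This was 1 of 50 groups of 4 arrays examined in this way, and chance alone flags about 1 in 20. Egr2 and Nr4a1 were also lowest in Control on this array, at 4.20 and 9.11, without passing the limit.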

How the results depend on the processing

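Fits without Control 1, Dex 1 and Dex 2 (the arrays with the fewest detected probes) and with that number of probes as a covariate were chosen after seeing the data. Egr1, Egr2, Nr4a1, Fos, Fosb, Jun and Junb kept their direction in the 22 alternatives, of which several (the replicate block, dim probes left out, eBayes with trend and the mean over probes) leave the fold of a gene with 1 probe as it is, and the fit with slide fixed equals the difference within the slide. Log2 fold changes ran from 0.64 to 1.41 for Fos, 0.16 to 0.78 for Fosb, 0.04 to 0.88 for Junb, -1.67 to -0.90 for Jun, -1.49 to -0.44 for Egr1, -2.14 to -0.07 for Egr2 and -0.80 to -0.30 for Nr4a1. Where a setting changed a result, the cause was not tested. Few arrays, and dim probes such as Egr3, limit what could be detected.

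From 0, the members called became 3 with the signal to noise statistic (Fos, Fosb, Jun), 4 with slide as a random block (Fos, Fosb, Jun, Junb), 1 with array weights (Fos), 2 without the 3 arrays (Egr1, Fosb) and 1 with the covariate (Egr1). Leaving out single arrays called 0 members in each fit.

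The median log2 fold change of the members, -0.30, became -0.10 (-0.097) with normexp, 0.104 with slide as a fixed block, and also within the shared slide, -0.103 with array weights, 0.150 without the 3 arrays and 0.0436 with the covariate. Leaving out single arrays gave -0.526 (without Control 2) to -0.097 (without Dex 2).

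The 4 pathway genes called became 9 with normexp, 6 with eBayes with trend and robust, 5 with dim probes left out, 2 with 75th percentile scaling, 0 with median scaling, 0 with slide as a fixed block, 13 as a random block, 8 with array weights, 14 without the 3 arrays, 9 with the covariate and 21 with the signal to noise statistic. Leaving out single arrays gave 1 to 3.

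With the replicate number as a block, 1 pathway gene (Dusp1) and no member were called, and over all probes the calls went from 319 to 81. The smallest adjusted p of a member was then 0.147 (Jun).

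The sign turned for Egr3 with 75th percentile scaling (-0.16), median scaling (-0.11), array weights (-0.0550) and when single arrays were left out (-0.0354 without Dex 4 to 0.349 without Dex 2). For Nr4a2 it turned with slide as a fixed block and within the slide (0.21) and when single arrays were left out (-0.251 without Control 2 to 0.0197 without Control 3). For the NM_017352 probe, which stands for Nr4a3, it turned with slide as a fixed block and within the slide (1.87), without the 3 arrays (0.37) and with the covariate (0.17), while the other Nr4a3 probes stayed lower within the slide (-0.78 and -1.30). None of these values passed. Over all probes, calls numbered 96 (without Control 4) to 249 (without Dex 3) when single arrays were left out, 912 with normexp, 765 with eBayes with trend and robust, 562 with dim probes left out, 166 with 75th percentile scaling, 13 with median scaling, 1 with slide as a fixed block, 1838 as a random block, 920 with array weights, 4671 without the 3 arrays, 1090 with the covariate and 2784 with the signal to noise statistic, and the members' and pathway calls are to be read against these.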
